A study of Mus musculus with 4 samples.

Results

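The Notch genes described here are 10 rows of a table of 12814 genes, picked by gene symbol. They are the ligands *Dll1*, *Jag1* and *Jag2*, the receptors *Notch1*, *Notch2* and *Notch3*, the receptor-modifying enzyme *Lfng*, and the transcriptional effectors *Hes1*, *Hes5* and *Hes6*. All 10 were found in the table. The RNA came from cells of the newborn mouse inner ear, sorted from *Atoh1/nGFP* animals of C57BL/6 background, with no treatment named in the labels. Hair cells (HCs) were sorted as positive for GFP and for the epithelial surface protein CD326, and epithelial non-sensory cells (ENSCs) as positive for CD326 and negative for GFP. Both populations were sorted from the cochlea, which serves hearing, and the vestibular system, which serves balance, so that 4 groups were compared: cochlear HCs, cochlear ENSCs, vestibular HCs and vestibular ENSCs. Cells of all 4 groups came from animals carrying the same transgene, in which regulatory sequence of *Atoh1* drives a nuclear GFP. Inner ears of several mice were pooled for a sample, and the ENSC gate held any CD326-positive cell without GFP, whether or not it touched an HC.

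Notch signalling passes between cells in contact. A ligand of the Delta-like or Jagged family on the surface of a cell binds a Notch receptor on its neighbour, the receptor is cut by an ADAM protease and then by gamma-secretase, and the freed intracellular domain joins the DNA-binding protein RBPJ to switch on genes that include the HES and HEY repressors. In the developing inner ear, nascent HCs are known to present Delta-like and Jagged ligands to their neighbours, which are held back from the HC fate through *Hes1* and *Hes5*, a process called lateral inhibition, while *Jag1* is known for an earlier role in marking the prosensory region.

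The deposited values are quantile-normalized signals with a floor of 20, which stands for the lowest level a gene can be listed at. There was 1 library per group, so no value has a replicate error, no difference could be set against a spread between samples, and no test was run. All comparisons below are ratios between 2 libraries, and at least 3-fold is used as a description of size. Because of the normalization each library summed to 7830343 with a median of 120, and since the sequencing depth behind the signals is unknown, counting error cannot be estimated. In 3 libraries the lowest signals could not be told apart (up to 24.25 in cochlear HCs, 22.75 in cochlear ENSCs and 30.5 in vestibular HCs), and a ratio against such a signal or against the floor is given as a lower bound, computed against the top of that range.

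The labels were checked against marker genes. All 10 HC markers, among them *Atoh1*, *Pou4f3* and *Myo7a*, were at least 3-fold higher in HCs than in ENSCs in either organ, and their summed signal was 37420 in HCs and 1880 in ENSCs of the cochlea and 32616 in HCs and 1467 in ENSCs of the vestibular system. Most of each sum was *Myo6*, at 29920, 1604, 21968 and 1287 in the same order. The 10 supporting cell markers did not follow the labels as closely: they summed to 14462 in cochlear HCs and 27815 in cochlear ENSCs, but to 15066 in vestibular HCs and 9341 in vestibular ENSCs. *Sox2*, a supporting cell and prosensory factor, had a signal of 466 in vestibular ENSCs and 3961 in vestibular HCs, and was the only marker of the 10 past 3-fold in that pair, where the median log2 ratio of the list was 0.35. In the cochlea *Tectb*, *Sparcl1* and *Otogl* carried most of the difference, with a list median of -0.35. The vestibular ENSC library also stood apart in base composition. Log2 ratios against it ran with the GC content of the genes (Spearman rho across genes -0.395 for vestibular HCs over vestibular ENSCs and -0.453 for cochlear over vestibular ENSCs), with rho of -0.0400 in the cochlea and 0.0215 between HCs for the ratios that left it out. The exons of the 10 Notch genes had a GC content of 48.5% to 63.1% with a median of 57.5%, against 48.8% for all annotated genes, and values after a correction for exonic length and GC content are given wherever they move any of the 10 across 3-fold.

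Promoter sequence is shown for 4 of the genes because it holds letters tied to this pathway. RefSeq promoter windows (GRCm38.p6, 250 bases before to 50 after a start site) were matched by symbol for 9 of the 10 genes, 11 windows in all. The 250 bases before the start are printed 5′ to 3′ on the strand of the gene, with 2 motifs in capitals. The first is GTGGGAA or its reverse complement TTCCCAC, the core of sites bound by RBPJ, and the second is CAGCTG, which reads the same on either strand and is an E-box of the kind bound by basic helix-loop-helix factors, the family of ATOH1.
Hes5 (chr4:154960673-154960922, plus strand): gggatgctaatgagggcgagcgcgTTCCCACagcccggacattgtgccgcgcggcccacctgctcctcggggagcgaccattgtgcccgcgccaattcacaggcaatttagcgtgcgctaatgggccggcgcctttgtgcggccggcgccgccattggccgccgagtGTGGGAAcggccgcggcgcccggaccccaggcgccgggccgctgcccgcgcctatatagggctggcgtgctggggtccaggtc
Lfng (chr5:140607091-140607340, plus strand): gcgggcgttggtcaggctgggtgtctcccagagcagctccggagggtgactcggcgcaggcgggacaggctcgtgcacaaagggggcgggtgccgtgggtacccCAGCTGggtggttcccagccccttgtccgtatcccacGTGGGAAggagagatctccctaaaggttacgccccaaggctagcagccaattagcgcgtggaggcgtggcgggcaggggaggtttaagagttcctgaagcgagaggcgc
Dll1 (chr17:15376933-15377182, minus strand): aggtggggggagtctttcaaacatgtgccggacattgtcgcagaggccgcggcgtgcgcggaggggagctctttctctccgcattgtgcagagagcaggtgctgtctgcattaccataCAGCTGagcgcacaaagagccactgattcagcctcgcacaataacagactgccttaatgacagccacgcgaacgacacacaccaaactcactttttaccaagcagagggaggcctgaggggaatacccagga
Hes6 (chr1:91413223-91413472, minus strand): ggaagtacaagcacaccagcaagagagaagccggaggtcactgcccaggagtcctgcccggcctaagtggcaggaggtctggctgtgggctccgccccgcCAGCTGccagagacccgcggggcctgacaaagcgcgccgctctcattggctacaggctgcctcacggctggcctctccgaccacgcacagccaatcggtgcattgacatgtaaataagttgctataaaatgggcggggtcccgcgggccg
*Hes5* held the RBPJ core 226 and 83 bases before its start, and *Lfng* held it 109 bases before. This core was in 2 of the 11 windows and in 6.38% of all 32851 RefSeq windows of the same length. In the windows printed, the E-box lay 132 bases before the start of *Dll1*, 150 bases before that of *Hes6* and 146 bases before that of *Lfng*, and *Jag1*, whose window is not printed, held it 82 bases before its start. *Dll1* and *Hes6* have a second window each, which held no E-box for *Dll1* and 1 for *Hes6*, 171 bases before its start. The *Lfng* window held a further E-box just past its start, outside the bases printed. The E-box was in 5 of the 11 windows, which belong to 4 genes, and in 16.3% of all windows. No match of one motif overlapped a match of the other. These matches describe letters in a window and are not evidence of binding.

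Across the 10 genes, HCs held the higher signal of *Dll1* and *Jag2* and the lower signal of every Notch receptor, whichever the organ. In the cochlea 3 of them were higher in HCs by at least 3-fold (*Dll1*, *Jag2* and *Hes6*), where 8.39% of all genes were, and 3 were at least 3-fold higher in ENSCs (*Notch1*, *Notch2* and *Notch3*), where 9.20% of all genes were. In the vestibular system 2 were at least 3-fold higher in HCs (*Dll1* and *Jag2*), against 13.8% of all genes, and the same 3 receptors were higher in ENSCs, against 14.3%. With 10 genes chosen by name the counts are small, and the median log2 ratio of the 10 was 0.05 for the cochlear pair and 0.37 for the vestibular pair, with medians of 0.00 and -0.0045 for all genes. The 10 genes thus spread to both sides rather than moving one way. In sorted populations of this kind, fewer cells that express a gene and less of its RNA per cell cannot be told apart.

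**Figure D1:**
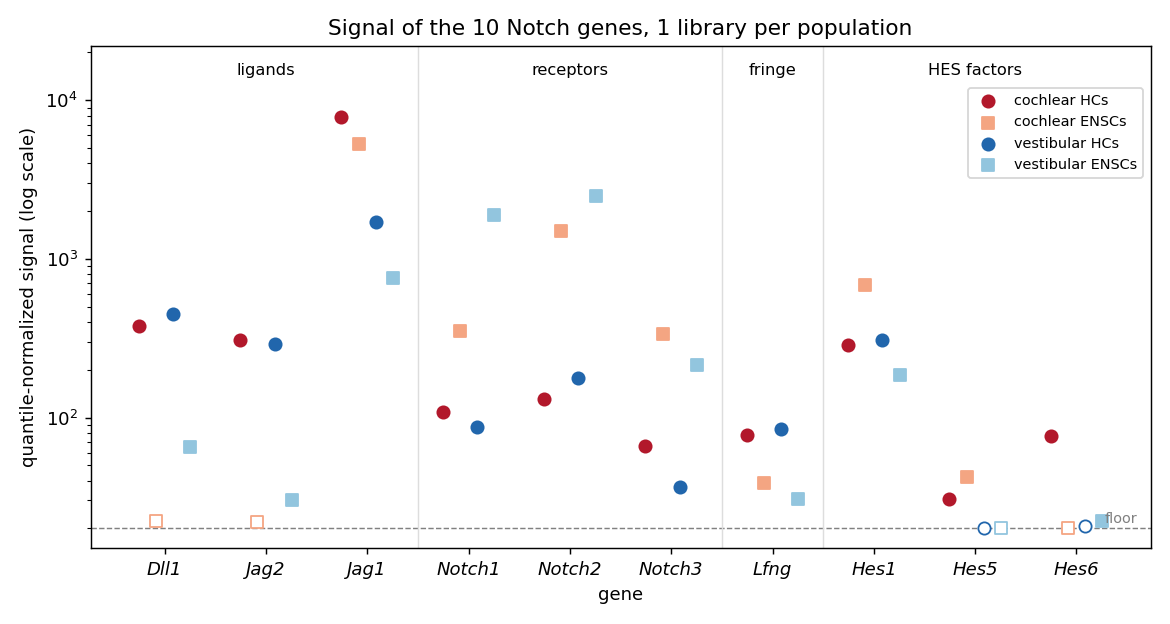
Quantile-normalized signal (log axis) of the 10 Notch genes in the 4 libraries, grouped by role, with circles for HCs, squares for ENSCs and open symbols for signals at or below the range that could not be told apart. *Dll1* and *Jag2* sit higher in the HC libraries (289 to 452.5) than in the ENSC libraries (22 to 65.25), and the 3 receptors sit lower in HCs (36.5 to 177) than in ENSCs (215 to 2507).

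Among the ligands, *Dll1* and *Jag2* both had higher signals in HCs than in ENSCs in either organ. *Dll1* encodes a Delta-like ligand and lies on chromosome 17 (ENSMUSG00000014773, mm9 chr17:15504318-15513836, minus strand). Its signal was 375 in cochlear HCs, 22.25 in cochlear ENSCs, 452.5 in vestibular HCs and 65.25 in vestibular ENSCs. Both HC libraries were thus far above both ENSC libraries, at least 16.5-fold in the cochlea, where the ENSC signal could not be told from lower ones, and 6.93-fold in the vestibular system. The vestibular log2 ratio was 2.79, and 5.02% of all genes had a ratio at least as high. The exons of *Dll1* share 867 bases with *A930024N18Rik* on the opposite strand, whose own signals were 172, 21.25, 58 and 29.25 in the same order. Whether the counting used strand is not stated, so reads of the pair may not have been separated.

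*Jag2* encodes a Jagged ligand (ENSMUSG00000002799, mm9 chr12:114146801-114167706, minus strand). It had a signal of 309 in cochlear HCs and 289 in vestibular HCs, against 22 and 30 in the matching ENSCs. The HC libraries were again the high ones, by at least 13.6-fold in the cochlea and 9.63-fold in the vestibular system (vestibular log2 ratio 3.27). With the floor raised to 100 the vestibular log2 ratio was 1.53, short of 3-fold. Over the 4 libraries the distance between the centred log2 signals of *Jag2* and *Dll1* was 0.83, the second smallest among the pairs of the 10 genes. The cochlear ENSC signals of both genes lay in the low range.

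*Jag1*, the other Jagged ligand (ENSMUSG00000027276, mm9 chr2:136907192-136942380, minus strand), did not separate the cell types in the same way. Its signal was 7815 in cochlear HCs, 5297.5 in cochlear ENSCs, 1712.5 in vestibular HCs and 761 in vestibular ENSCs. Both cochlear libraries were above both vestibular ones, and within an organ HCs were above ENSCs by 1.48-fold in the cochlea and 2.25-fold in the vestibular system, both under 3-fold. The supporting cell markers, with the sums and list medians given above, were also present in both HC libraries. Their part in the *Jag1* signals was not tested.

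The Notch receptors were the mirror image of *Dll1* and *Jag2*. *Notch2* (ENSMUSG00000027878, mm9 chr3:97817461-97954290, plus strand) had the largest cochlear ratio of the 3, with a signal of 130 in cochlear HCs and 1493 in cochlear ENSCs. In the vestibular system it was 177 in HCs and 2507 in ENSCs. The ENSC libraries were 11.5-fold and 14.2-fold above the HC libraries (log2 ratios of HC over ENSC -3.52 and -3.82), and 1.17% and 1.55% of all genes had a ratio at least as low.

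*Notch1* (ENSMUSG00000026923, mm9 chr2:26313423-26372183, minus strand) had a signal of 108 in cochlear HCs, 352 in cochlear ENSCs, 87.5 in vestibular HCs and 1887 in vestibular ENSCs. The vestibular ENSC library was far above the other 3. In the cochlea *Notch1* was 3.26-fold lower in HCs, just past 3-fold, and a pseudocount of 20 took its log2 ratio from -1.71 to -1.54, short of 3-fold. In the vestibular system it was 21.6-fold lower in HCs (log2 ratio -4.43, and -3.65 after the length and GC correction), and 0.827% of all genes had a ratio at least as low. The vestibular minus the cochlear log2 ratio was -2.72, and -1.86 after the length and GC correction, a difference that was not tested. The annotation places exons of 2 other transcripts, *0610009E02Rik* and *Gm13568*, over 1068 and 414 bases of *Notch1* on the opposite strand.

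*Notch3* (ENSMUSG00000038146, mm9 chr17:32257765-32303825, minus strand) followed the same direction. Its signal was 65.75 in cochlear HCs, 336 in cochlear ENSCs, 36.5 in vestibular HCs and 215 in vestibular ENSCs. Both ENSC libraries were above both HC libraries, 5.11-fold in the cochlea and 5.89-fold in the vestibular system. The vestibular ratio did not stay past 3-fold after the length and GC correction, where it went from -2.56 to -1.39 on the log2 scale, or with the floor raised to 100, where it was -1.10. Exons of *Gm17276* lie over 488 bases of *Notch3* on the opposite strand. *Notch3* is known from pericytes and smooth muscle, and 3 of 8 listed markers of those cells had a row in the table, *Pdgfrb*, *Cspg4* and *Acta2* having none. Their summed signal was 61 in cochlear HCs and 99 in cochlear ENSCs, and 132 and 133.5 in the vestibular pair. *Rgs5*, a pericyte gene, had signals of 21, 59, 23.5 and 93.5 in cochlear HCs, cochlear ENSCs, vestibular HCs and vestibular ENSCs. *Abcc9* and *Des*, the other markers with a row, were at 20 in 3 libraries and at 54.25 in vestibular HCs.

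Markers of other cell types were mixed in direction. For Schwann cells, 5 of 6 listed markers summed to 1001 in cochlear HCs and 2249 in cochlear ENSCs, and to 575 in vestibular HCs and 3681 in vestibular ENSCs, with 4 of the 5 lower in HCs in either organ. For mesenchyme, 6 of 8 summed to 620 in cochlear HCs and 2759 in cochlear ENSCs, and to 359 and 2018.5 in the vestibular pair. Of these *Pdgfra* went the other way, at 482 and 54.25 in the cochlear pair and 163 and 47.75 in the vestibular pair, and *Tbx18* was at 20 in both cochlear libraries. *Kdr*, an endothelial receptor and the only one of 8 endothelial markers with a row, had a signal of 1462 in vestibular ENSCs and of 24.25 to 29.75 in the other 3 libraries, while *Pecam1* and *Cdh5* had no row. *Mitf*, the only 1 of 6 melanocyte markers with a row, had 72.25 and 244 in cochlear HCs and ENSCs and 41.5 and 247.5 in the vestibular pair. Of 7 blood cell markers *Cd68* alone had a row, at 20 in 3 libraries and 24.75 in vestibular ENSCs. Of 8 neuronal markers 5 had a row and summed to 5718 and 6765 in HCs against 278 and 102.5 in ENSCs, a sum carried by *Nefl*, *Nefm* and *Snap25*, while *Stmn2* (30.75 and 81.5) and *Ntrk3* (20, the floor, and 25.75) were lower in cochlear HCs than in cochlear ENSCs. In vestibular HCs and ENSCs *Stmn2* was 22 and 20, and *Ntrk3* was 61.25 and 22.5. The part of these cells in the receptor and ligand signals was not tested. *Epcam*, which encodes CD326, was itself lower in HCs, at 1017 against 3376 in ENSCs for the cochlea and 1139 against 7511 for the vestibular system. Of the other epithelial markers, *Krt8* and *Krt18* were lower in HCs in either organ, at 60.75 against 1524 and 172.5 against 6189 in the vestibular pair, and *Cdh1* was 6003 in HCs and 4853 in ENSCs of the cochlea but 178.5 and 3308 in the vestibular pair. The part of these markers in the receptor signals was not tested.

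*Lfng* encodes Lunatic fringe, a glycosyltransferase that adds sugars to Notch receptors and so shifts their response between ligand families (ENSMUSG00000029570, mm9 chr5:141083295-141091497, plus strand). Its signal was 78 in cochlear HCs, 38.75 in cochlear ENSCs, 84.75 in vestibular HCs and 30.75 in vestibular ENSCs. The HC libraries were the higher ones, by 2.01-fold in the cochlea and 2.76-fold in the vestibular system. After the length and GC correction the vestibular log2 ratio went from 1.46 to 2.72, past 3-fold. Per kilobase of exon, 47.6% of all genes were below *Lfng* in cochlear HCs and 30.6% in cochlear ENSCs, and 50.5% and 25.3% in the vestibular pair.

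The HES genes showed no common direction. *Hes1*, a repressor switched on by Notch in many tissues (ENSMUSG00000022528, mm9 chr16:30064470-30067882, plus strand), had a signal of 285 in cochlear HCs, 685 in cochlear ENSCs, 308.5 in vestibular HCs and 185 in vestibular ENSCs. The HC signals lay between the ENSC signals, so that *Hes1* was 2.40-fold lower in HCs in the cochlea and 1.67-fold higher in HCs in the vestibular system, both under 3-fold. Of all genes 27.0% had ratios of opposite sign in the 2 organs.

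*Hes5*, the repressor most closely tied to Notch activity in this epithelium (ENSMUSG00000048001, mm9 chr4:154335032-154336480, plus strand), was close to the floor throughout. It had a signal of 30.5 in cochlear HCs and 42.25 in cochlear ENSCs and was listed at the floor of 20 in both vestibular libraries. A difference of *Hes5* between HCs and ENSCs of the vestibular system could therefore not be seen in these values. The exons of *Hes5* share 433 bases with *RP24-89N4.5* on the opposite strand.

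*Hes6*, a HES relative that is known to oppose *Hes1* and to be expressed in differentiating cells (ENSMUSG00000067071, mm9 chr1:93308060-93310615, minus strand), was well above the floor in 1 library. Its signal was 76.75 in cochlear HCs, 20 in cochlear ENSCs, 20.75 in vestibular HCs and 22.25 in vestibular ENSCs. Cochlear HCs were at least 3.37-fold above cochlear ENSCs and at least 2.52-fold above vestibular HCs. The step in the cochlea did not stay past 3-fold with a floor of 50, where the log2 ratio was 0.62.

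**Figure D2:**
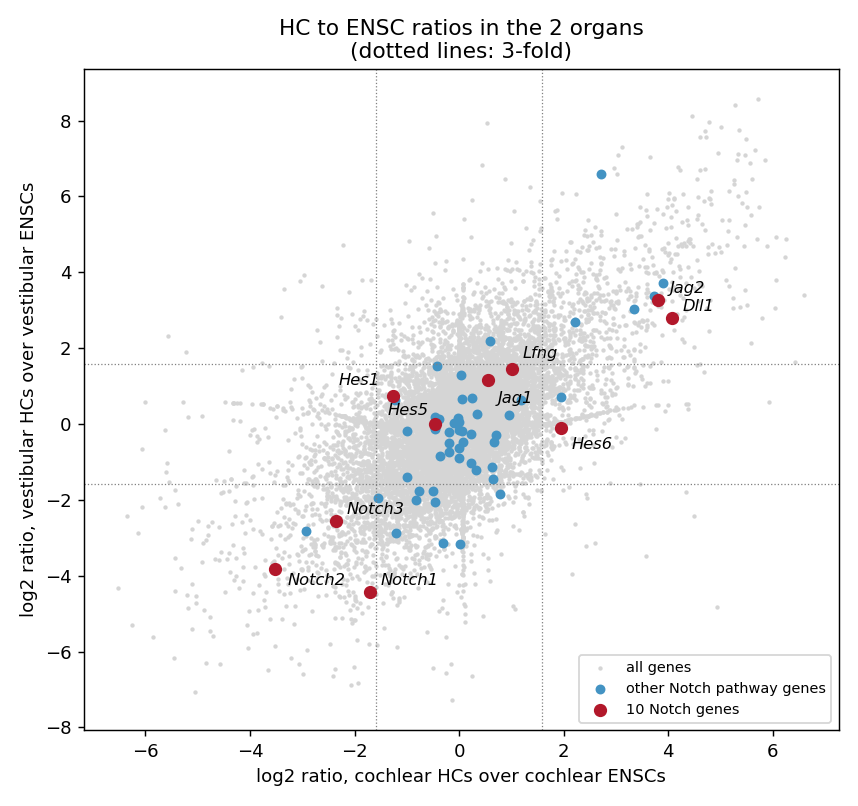
Log2 ratio of HCs over ENSCs in the cochlea (horizontal) and in the vestibular system (vertical) for all 12814 genes in grey, the 50 other Notch pathway genes in blue and the 10 Notch genes in red. *Dll1* and *Jag2* lie past 3-fold at the upper right and the 3 receptors past 3-fold at the lower left, while *Jag1*, *Lfng*, *Hes1* and *Hes5* lie inside the dotted lines.

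Signals were divided by exonic length to set the genes of a library side by side, and were not corrected for GC content. Whether such levels can be compared between genes was not tested. Per kilobase of exon, *Jag1* had the highest level of the 10 genes in 3 libraries, at 1341 in cochlear HCs, 909 in cochlear ENSCs and 294 in vestibular HCs. In cochlear HCs 99.0% of all genes had a lower level per kilobase than *Jag1*. In vestibular ENSCs *Notch2* came first at 239, followed by *Notch1* at 133 and *Jag1* at 131. Ratios against this library ran with GC content, so the order of *Notch1* and *Jag1* there cannot be read. The order of the receptors differed between the populations: per kilobase *Notch2* was 5.75-fold above *Notch1* in cochlear ENSCs and 1.80-fold above it in vestibular ENSCs, and *Notch1* was 0.592 of *Notch3* in cochlear ENSCs and 4.96 times *Notch3* in vestibular ENSCs. In HCs the receptors were between 4.54 and 16.8 per kilobase, the last 3 of the 10 in cochlear HCs. In vestibular HCs their order against *Hes5* and *Hes6* cannot be read, since the signals of these 2 lay in the low range.

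The ligands were set side by side in the same way. In cochlear HCs *Jag1* was 15.1-fold above *Dll1* and 17.6-fold above *Jag2* per kilobase. In vestibular HCs the step was smaller, 2.74-fold over *Dll1* and 4.12-fold over *Jag2*. The level of *Dll1* was 88.9 and 107 per kilobase in cochlear and vestibular HCs, and that of *Jag2* was 76.2 and 71.3, so these ligands were close to each other in both HC libraries. Without replicates, it cannot be said whether neighbours this close in the order differ. *Hes1* was the second highest of the 10 genes per kilobase in 3 libraries, at 140 in cochlear HCs, 336 in cochlear ENSCs and 151 in vestibular HCs.

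Comparing the organs within a cell type separated a different set of the genes. Between HCs, 2 of the 10 passed 3-fold toward the cochlea (*Jag1*, and *Hes6* as deposited, with a bound of 2.52-fold), against 4.21% of all genes, and 0 toward the vestibular system, against 5.09%. Between ENSCs, 2 passed 3-fold toward the cochlea (*Jag1* and *Hes1*), against 7.80% of all genes, and 1 toward the vestibular system (*Notch1*), against 7.94%. Cochlear HCs had 4.56 times the *Jag1* signal of vestibular HCs, and cochlear ENSCs had 6.96 times that of vestibular ENSCs, and 1.66% and 1.62% of all genes had ratios at least as high. Its log2 ratios of 2.19 and 2.80 became 2.15 and 2.77 after the length and GC correction. *Hes1* was 3.70-fold higher in cochlear than in vestibular ENSCs (log2 ratio 1.89) and differed little between the HC libraries (-0.11). *Notch1* was 5.36-fold lower in cochlear than in vestibular ENSCs (log2 ratio -2.42), and -1.59 after the correction, at the edge of 3-fold.

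For the other genes the organs were closer. *Dll1* and *Jag2* had log2 ratios of cochlear over vestibular HCs of -0.27 and 0.10. In ENSCs *Dll1* was 2.87-fold lower in the cochlea when its cochlear signal is taken at the top of the low range, and its deposited log2 ratio of -1.55 became -0.83 after the length and GC correction. *Notch2* had ratios of -0.45 between HCs and -0.75 between ENSCs, and *Notch3* of 0.85 and 0.64, the latter 1.59 after the correction. *Lfng* had ratios of -0.12 and 0.33. Those comparisons use the same 4 libraries as the HC to ENSC ratios and are not independent of them. Supporting cell markers moved with the ENSC comparison: 6 of 10 were higher by at least 3-fold in the cochlear ENSCs and 0 were lower by as much, and their part in the *Jag1* and *Hes1* differences was not tested.

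**Figure D3:**
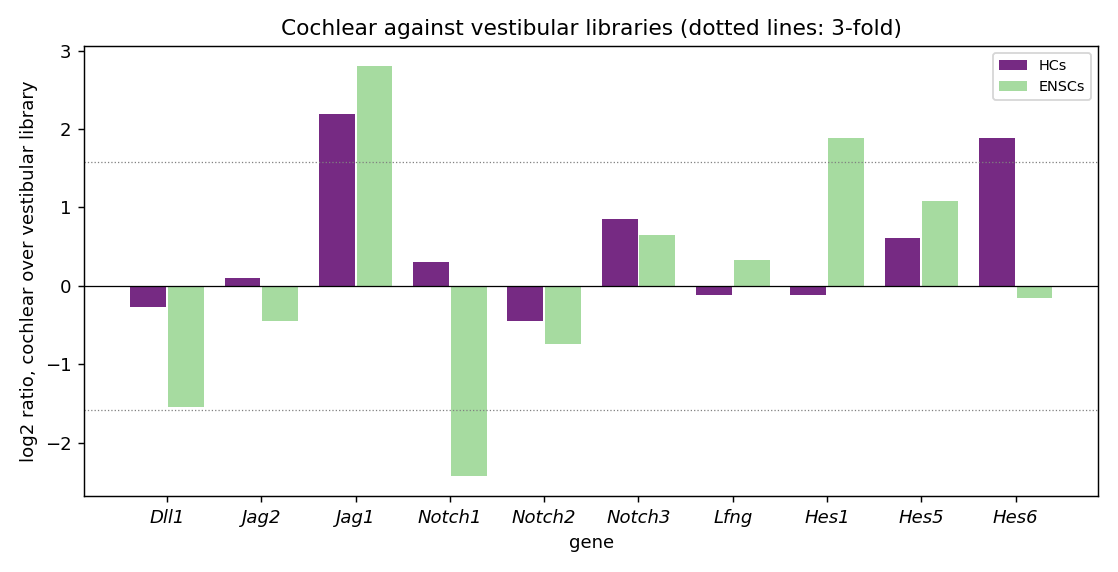
Log2 ratio of the cochlear over the vestibular library for each Notch gene, in HCs and in ENSCs, with dotted lines at 3-fold. *Jag1* is past 3-fold in both cell types (2.19 and 2.80), *Hes1* in ENSCs (1.89) and *Notch1* in ENSCs in the other direction (-2.42), and the *Hes6* bar for HCs (1.89) is against a signal in the low range, with a bound of 2.52-fold.

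Of 56 other genes of the pathway listed by role, 50 had a row in the table. In the cochlea 6 of these were past 3-fold toward HCs and 1 toward ENSCs, where 8.39% and 9.20% of all genes were. In the vestibular system 6 and 10 were, beside 13.8% and 14.3% of all genes. Their median log2 ratios were 0.00 and -0.19. Of 5 further ligands, 4 passed 3-fold toward HCs for the cochlear pair and 3 for the vestibular pair.

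*Dll3*, a Delta-like protein that acts within the cell, had a signal of 291 in cochlear HCs and 206 in vestibular HCs and was at 22 and 20 in the matching ENSCs, at least 12.8-fold and at least 10.3-fold apart. *Dner*, a Notch ligand of neurons, had 652 and 99.5 in cochlear HCs and ENSCs and 1918 and 20 in the vestibular pair, a log2 ratio of 2.71 in the cochlea and at least 95.9-fold in the vestibular system. *Dlk2*, a ligand-like protein without the usual receptor-binding domain, had 92.5 and 128.5 in cochlear and vestibular HCs and was at the floor in both ENSC libraries. The HC libraries were thus the higher ones for *Dll3*, *Dner* and *Dlk2*, while *Dlk1* was at the floor in 3 libraries and at 30.75 in vestibular ENSCs. *Dll4*, a further Delta-like ligand, had a signal of 76.75 in HCs of the cochlea and 32.5 in those of the vestibular system, and both ENSC libraries were at the floor.

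Outside the ligands, 2 genes were past 3-fold toward HCs in both organs. *Mfng*, the Manic fringe relative of *Lfng*, had a signal of 221.5 in HCs and 21.75 in ENSCs of the cochlea and of 164 and 20 in the vestibular pair, at least 9.74-fold and at least 8.21-fold higher in HCs. *Neurl1b*, a ubiquitin ligase that acts on ligands, had 386 and 261 in HCs against 26 and 20 in ENSCs, a log2 ratio of 3.89 in the cochlea and at least 13.1-fold in the vestibular system. *Mib1*, the ubiquitin ligase that most ligands need, was even, between 4835 and 5642 in the 4 libraries. *Aph1b*, a gamma-secretase subunit, was at least 3-fold higher in vestibular HCs than in vestibular ENSCs (1206 against 262.5), but it has a near-identical copy, *Aph1c*, and the split of reads between them is uncertain.

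In the other direction, *Dtx4*, a ubiquitin ligase that acts on receptors, followed the receptors in both organs, with 36 and 273 in cochlear HCs and ENSCs and 80 and 564 in the vestibular pair (log2 ratios -2.92 and -2.82). The remaining genes past 3-fold were so in the vestibular system. *Ncstn*, which encodes the gamma-secretase subunit nicastrin, had 216 and 500 in the cochlear pair and 215 and 1588 in the vestibular pair (vestibular log2 ratio -2.88). Of 15 genes of the nuclear complex and its corepressors, 6 were at least 3-fold lower in vestibular HCs than in vestibular ENSCs, as were 14.3% of all genes, and 0 were past 3-fold in the cochlea. After the length and GC correction 2 of the 15 were lower by as much in the vestibular system, as were 10.1% of all genes.

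For several of these the vestibular difference did not stay past 3-fold after the length and GC correction, under which 8 of the 50 genes were higher in vestibular HCs and 5 in vestibular ENSCs (14.7% and 10.1% of all genes after the same correction), in place of 6 and 10, some of the former resting on ENSC signals at the floor. *Furin*, the protease that matures the receptor, went from -2.07 to -1.26, *Dtx3* from -1.84 to -0.76, *Maml1*, a coactivator of the RBPJ complex, from -1.95 to -1.04, *Maml3* from -1.78 to -1.06 and *Tle3*, a Groucho corepressor, from -1.78 to -1.07. *Aes*, a short Groucho relative, went from -3.15 to -1.80, still past 3-fold. In the cochlea the correction changed less, with 6 genes higher in HCs and 1 in ENSCs before and after it.

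**Figure D4:**
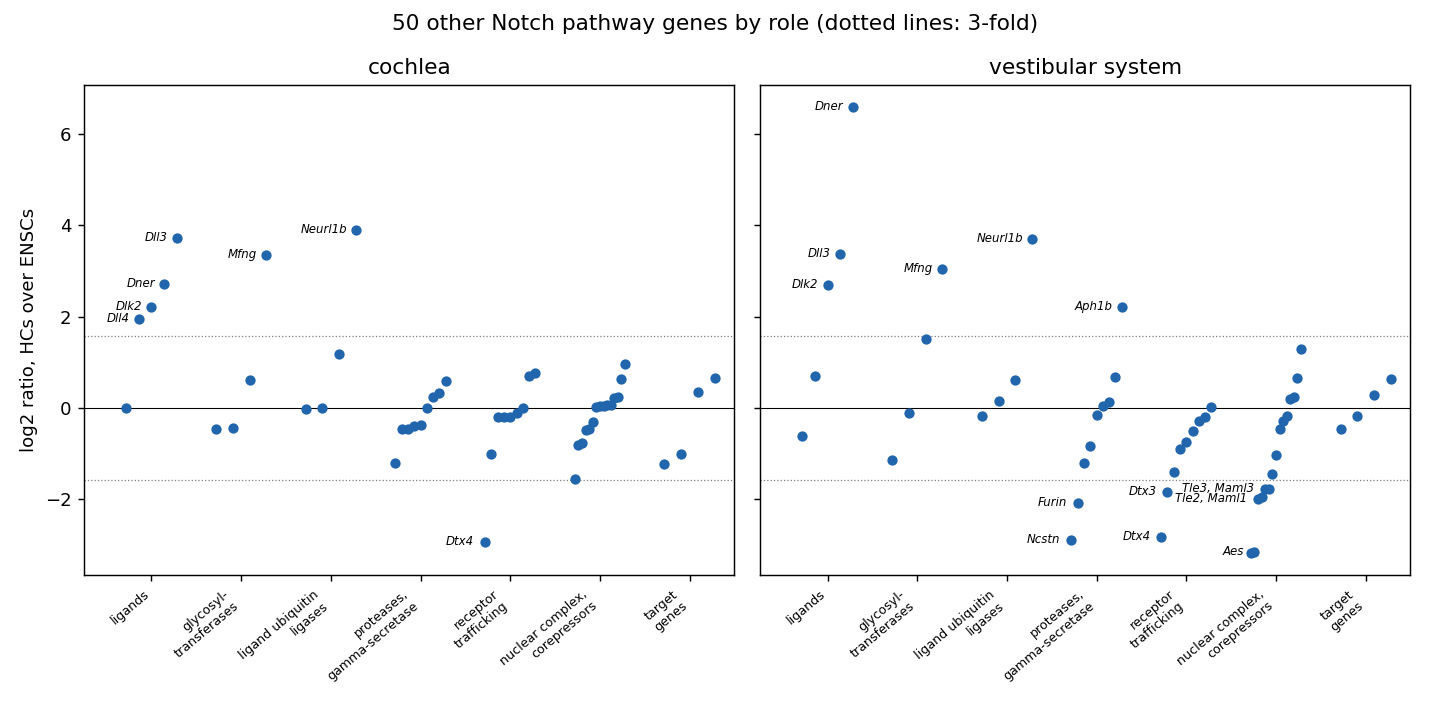
Log2 ratio of HCs over ENSCs for the 50 other pathway genes, grouped by role, in the cochlea (left) and the vestibular system (right), drawn from lowest to highest within a role, with names beside most genes past 3-fold. *Dll3*, *Dlk2*, *Dner*, *Mfng* and *Neurl1b* lie above 3-fold in both panels, and the genes of the nuclear complex spread below 3-fold in the vestibular panel (6 of 15 beside 14.3% of all genes, and 2 beside 10.1% after the length and GC correction) and not in the cochlear one (0 of 15, beside 9.20%).

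Values are also given for parts of the core pathway and for other target genes. *Rbpj*, which encodes the DNA-binding partner of the receptors, had signals of 267, 366, 256.5 and 225 in cochlear HCs, cochlear ENSCs, vestibular HCs and vestibular ENSCs. *Adam10*, the protease that makes the first cut, had 5608, 7349, 4031 and 3686. Of the 4 other target genes with a row (*Hey1*, *Hey2*, *Heyl* and *Nrarp*), 0 were past 3-fold between HCs and ENSCs in either organ, beside 8.39% to 14.3% of all genes past it in a given direction and organ. *Hey1* was 703 and 1410 in cochlear HCs and ENSCs, and *Nrarp* was 92.5 and 216.5, both lower in HCs. *Hey2* at 643 and 508 and *Heyl* at 95 and 60 were higher in cochlear HCs than in cochlear ENSCs. In the vestibular system *Hey1* was 698 and 792.5, *Nrarp* 144 and 92.5, *Hey2* 494 and 408, and *Heyl* 152 and 209.5.

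Between the organs, 1 of the 50 genes was past 3-fold toward cochlear HCs as deposited, *Aph1c*, with a bound of 2.82-fold, beside 4.21% of all genes. In ENSCs 2 were past 3-fold toward the cochlea and 6 toward the vestibular system, where 7.80% and 7.94% of all genes were. *Pofut1*, the enzyme that adds fucose to Notch receptors, was 579 in cochlear and 144 in vestibular ENSCs (log2 ratio 2.004). *Ncstn*, *Spen*, *Aes* and *Heyl* were lower in cochlear ENSCs, with log2 ratios of -1.67, -1.75, -1.96 and -1.80. After the length and GC correction the 6 lower genes became 0, where 5.02% of all genes were lower. Toward the cochlea 3 were higher after it, where 7.33% of all genes were.

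The 10 genes were also compared with every other gene by the shape of their signal over the 4 libraries, as a description over 4 values. The measure was the distance between log2 signals centred on each gene's mean, over 7025 genes that reached a signal of 100 in some library and ranged over at least 1 on the log2 scale. The nearest to *Notch1* was *Mfap2*, a microfibril protein, at 0.11, followed by *Hbegf* at 0.20 and *Maged1* at 0.23. The nearest to *Notch2* was *Col27a1*, a fibrillar collagen, at 0.14, then *Fgf14* at 0.20 and *Myof* at 0.23, and the nearest to *Notch3* were *Wfikkn2* at 0.19, *Sfrp1*, a secreted Wnt antagonist, at 0.30 and *Rbms1* at 0.32. *Mfap2* shows how close this is, with signals of 73.25, 221, 54 and 1214 beside 108, 352, 87.5 and 1887 for *Notch1*.

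For the ligands, *Jag2* was nearest to *D7Ertd443e* at 0.20, *Tnc*, an extracellular matrix glycoprotein, at 0.38 and *Capsl* at 0.40. *Dll1* had more distant neighbours, *Tjap1* at 0.45, *Slc8a1*, a sodium-calcium exchanger, at 0.49 and *Nfkbib* at 0.64. *Jag1* was nearest to *B3gntl1* at 0.22, *Dpp10* at 0.23 and *Trmt11* at 0.28. *Hes1* was nearest to *Ptplb* at 0.14, *Sap30* at 0.17 and *Naa38* at 0.21. The measure rests on 4 values per gene, and signals in the low range entered it as deposited. Among these were *Fgf14* in cochlear HCs, *Myof* in both HC libraries, and *Dll1*, *Jag2*, *Tjap1* and *Slc8a1* in cochlear ENSCs. *Hes5*, *Hes6* and *Lfng*, whose signals stayed under 100, were not compared in this way.

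The length and GC correction moved the 10 genes unevenly between the organs. In the cochlea no gene crossed 3-fold, with 3 higher in HCs and 3 in ENSCs before and after, beside 9.16% and 8.27% of all genes after it. In the vestibular system *Lfng* crossed upward and *Notch3* dropped under 3-fold, so that 3 were higher in HCs and 2 in ENSCs, beside 14.7% and 10.1% of all genes. *Dll1* and *Jag2* stayed past 3-fold, at 3.73 and 4.59 on the log2 scale, as did *Notch1* and *Notch2*, at -3.65 and -3.30. Between ENSCs 4 genes were past 3-fold toward the cochlea and 1 toward the vestibular system after the correction, beside 7.33% and 5.02% of all genes, the added ones being *Notch3* at 1.59 and *Hes5* at 2.09, and the latter rests on a floor signal in vestibular ENSCs.

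**Figure D5:**
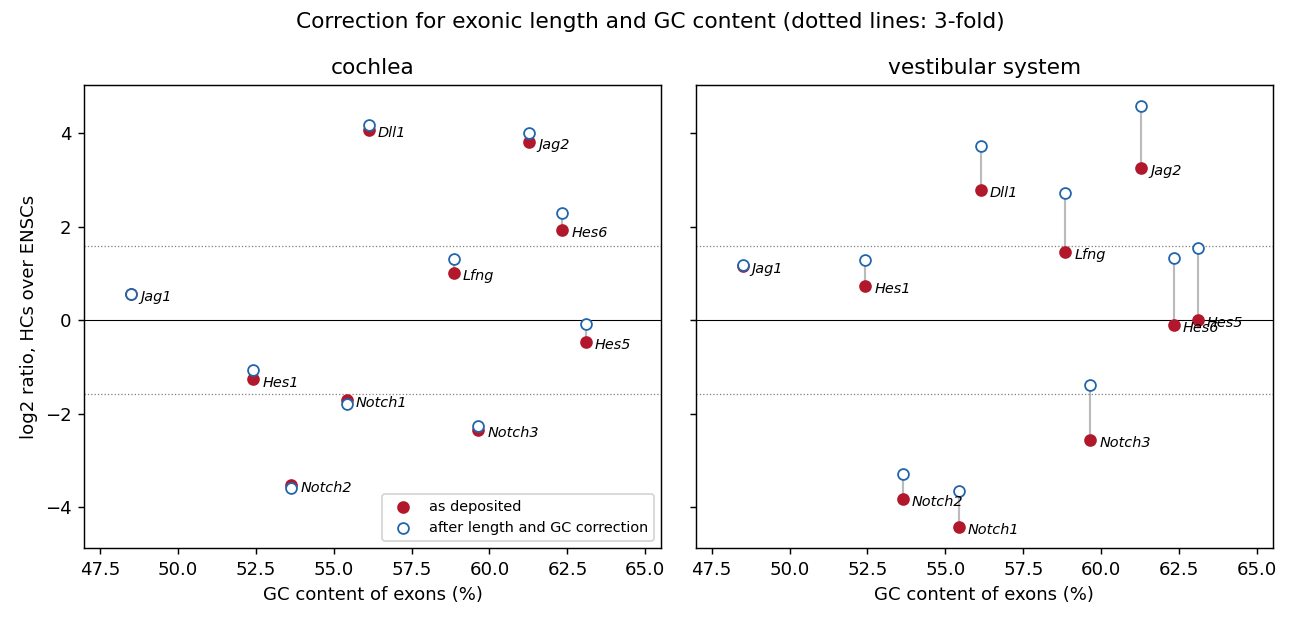
Log2 ratio of HCs over ENSCs for the 10 Notch genes against the GC content of their exons (%), as deposited (filled) and after the length and GC correction (open), in the cochlea (left) and the vestibular system (right). The open symbols of the vestibular panel lie above the filled ones, broadly by more for genes of higher GC content, as for *Lfng* (1.46 to 2.72) and *Notch3* (-2.56 to -1.39), and *Hes5* and *Hes6* there rest on signals at or near the floor.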

How the data were processed

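Reads trimmed to their first 50 nt were aligned by the authors to mm9 (TopHat), counted over ENSEMBL genes (HTSeq) and quantile-normalized across the 4 columns, and a floor of 20 was set. The deposited values are therefore a signal per gene, and differences in depth and total RNA between the 4 libraries, 1 per population, have been removed. Software versions, the strand setting of the counting, and how the triplicates named in the design text were combined are not given in the sources used here. Libraries were grouped by source name and columns by title, non-HC columns standing for the ENSCs of an organ, and 0 columns of per-sample values were left unused.

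Log2 ratios of the deposited signals were computed without a pseudocount in 4 contrasts, and ratios of at least 3 were counted. With 1 library per group no test was made. The range of low signals that could not be told apart was found as the signals, up to 40, whose order within a library followed the genes' highest signal in the other libraries (Spearman rho of at least 0.8). GENCODE annotation of NCBIM37 (mm9) gave the position, GC content and exonic length of 12799 genes. The correction took out the trends of the log2 ratio on length and then on GC content by lowess (a fraction of 0.3 of the genes, 2 robust iterations). Python 3.11.15, numpy 2.4.6, pandas 2.3.3, scipy 1.17.1, statsmodels 0.14.6 and matplotlib 3.10.9 were used, and the scripts were tested on simulated data.

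All 10 Notch genes are named. Other pathway genes are named when at least 3-fold apart in a contrast whose higher library reached a signal of 100, and others named (*Dll4*, *Dlk1*, *Aph1c*, *Mib1*, *Rbpj*, *Adam10*, the target genes and the single markers of other cells) were chosen after their values were seen. A gene that met this rule is not reported here. For each Notch gene with a highest signal of at least 100, the 3 genes of the most similar pattern are named. The members and lists were chosen with earlier results of these data known. The alternatives were floors of 50 and 100, a pseudocount of 20, a filter for genes that reached a signal of 100, centring, a 2-fold threshold, raising low signals to the top of their range, and the length and GC correction.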

Additional observations from a re-analysis of the deposited data

Results flagged for a closer look

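Ratios of HCs over ENSCs had opposite signs in the 2 organs for *Hes1* and, in the deposited signals, for *Hes6*, as for 27.0% of all genes. For *Hes1* the log2 ratio was -1.27 in the cochlear pair and 0.74 in the vestibular pair, a difference of 2.003, from signals of 285 and 685 in cochlear HCs and ENSCs and of 308.5 and 185 in the vestibular pair. The HC signals were close to each other, and the ENSC signals were not. For *Hes6* it was 1.94 and -0.10, a difference of -2.04, but its vestibular signals of 20.75 and 22.25 were at or near the floor, so the vestibular direction cannot be read. The vestibular ratio was above 0, as in the cochlea, after the length and GC correction and with the low range raised to its top, and the cochlear ENSC signal was at the floor of 20. With 1 library per group neither difference was tested.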

How the results depend on the processing

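The labels give no replicate numbers, so there was no replicate pairing to use, and with 1 library per group no replicate could be left out. A fit of cell type with organ as a term was not run. Of 308 values of single Notch genes under the alternatives, 288 stayed on their side of the threshold, 9 moved past it and 11 dropped under it. The sign changed in 6, of which 0 were past 3-fold before or after: *Jag2* between HCs and between ENSCs under the length and GC correction, and *Hes6* in the vestibular system and between ENSCs under that correction and with the low range raised. The filter at a signal of 100 changed no ratio, so its 28 values stayed by construction. The 2-fold threshold changed no ratio either, and 6 of the 9 moves past the threshold came from that lower bar alone. The counts of Notch genes past the threshold (6 in the cochlea, 5 in the vestibular system, 2 between HCs and 3 between ENSCs) and of other pathway genes (7, 16, 1 and 8) moved by more than 1.5 times as follows. Between HCs, 1 Notch gene and 0 other pathway genes were past 3-fold with floors of 50 or 100, a pseudocount of 20, the filter at a signal of 100, and the low range raised to its top. A floor of 100 also gave 3 Notch genes in the vestibular system, and 2, 8 and 4 other pathway genes in the cochlea, the vestibular system and between ENSCs. A pseudocount of 20 gave 5 other pathway genes between ENSCs. A 2-fold threshold gave 5 Notch genes between ENSCs and 13, 6 and 14 other pathway genes in the cochlea, between HCs and between ENSCs. The length and GC correction gave 5 Notch genes between ENSCs, and 2 and 3 other pathway genes between HCs and between ENSCs. Smaller moves left the count of Notch genes between 4 and 8 in the cochlea and between 3 and 7 in the vestibular system over all alternatives, and that of other pathway genes in the vestibular system between 8 and 23. Centring on the median ratio moved no count. The filter at a signal of 100 gave no value for *Hes5*, *Hes6* and *Lfng*. *Jag2* in the vestibular system went under 3-fold with a floor of 100 (log2 ratio 1.53), and *Hes6* between HCs was 1.25 with a pseudocount of 20 and 1.33 with the low range raised. Raised floors and pseudocounts shrink ratios of low signals by construction. Signals at or near the floor limit what can be read for *Hes5* and *Hes6*, and for *Dll1* and *Jag2* in ENSCs.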
